A study of Mus musculus with 9 samples.

Results

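Expression of 10 genes that carry out or adjust Notch signaling in the nucleus and on the receptor was followed across the RNA-Seq libraries, which counted 50686 mouse genes. The 10 genes were chosen by name, namely the repressors Hes1, Hey1, Hey2, and Heyl, the feedback inhibitor Nrarp, the nuclear factors Rbpj and Maml2, and the Fringe enzymes Lfng, Mfng, and Rfng. The question was whether the targets and modulators of Notch rose together after GSK3 inhibition or whether Hes1 rose alone. The libraries came from control MC3T3-E1 cells, a mouse osteoblast line, from the same line given 10 μM SB216763, which blocks the GSK3 kinases, for 14 days, and from mouse ECs of the lung, which were isolated by FACS and not treated, and each of the 3 groups has 3 libraries. Groups were taken from the titles, since the same treatment text stands on every sample, and the time that controls spent in culture is not stated, so treatment and time in culture may differ together between the osteoblast groups. All MC3T3-E1 libraries derive from a single line, the ECs come from another tissue, and the labels do not say whether replicates were separate cultures, so the p-values measure the spread between these libraries, which may be technical. The libraries held between 30990107 and 68946333 counts. A level in CPM is the count per 1e6 counts of the library after TMM scaling, and 3 counts correspond to between 0.0435 and 0.0968 CPM of the library totals. The intervals on sparse genes cover counting error only.

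Notch receptors are activated by ligands on a neighboring cell and are then cut by ADAM proteases and the gamma-secretase complex. The freed intracellular domain enters the nucleus, binds the DNA-binding protein RBPJ, and recruits a Mastermind co-activator such as MAML2 to switch on target genes. The HES and HEY genes, which encode basic helix-loop-helix repressors, and Nrarp are classic targets of this complex, while the Fringe glycosyltransferases modify the sugars of the receptor and so tune its response to Delta and Jagged ligands. In vessels, Notch is known for arterial specification and for the choice between tip and stalk cells, and in bone it restrains osteoblast maturation.

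The identity of the groups was checked with lists of marker genes. The summed level of 10 endothelial markers lay between 7056 and 7214 CPM in the ECs, from 3.23 to 3.93 CPM in the control osteoblasts, and from 2.84 to 3.21 CPM in treated ones, and each of the 10 was under a mean of 1 CPM in both MC3T3-E1 groups. The 6 osteoblast markers added up to 43916 to 59344 CPM in the controls, 8066 to 8338 CPM in treated cells, and 45.1 to 64.5 CPM in the ECs. The 6 smooth muscle markers ranged in sum from 2912 to 3097 CPM in the controls and from 206 to 225 CPM in treated cells, mostly from Acta2, while Myh11 had between 2 and 7 counts in each of those libraries. The 6 leukocyte markers reached between 46.6 and 48.9 CPM in the ECs, mostly from Cd68, while Ptprc had between 1 and 6 counts there. Lung epithelial markers stayed under 0.7 CPM in sum in every library. The 4 lymphatic markers summed to between 248 and 265 CPM in the ECs, from Flt4 and Lyve1, with Prox1 at 2 counts over the 3 EC libraries, and to between 90.8 and 102 CPM in the MC3T3-E1 libraries, from Pdpn. The FACS gate of the ECs is not given in the sources used here. The part of such other cell types in the results was not tested, and in bulk RNA fewer cells of a type and less RNA per cell cannot be told apart.

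Promoters in the RefSeq table on GRCm38.p6 were found for 6 of the 10 genes, namely Hey2, Nrarp, Rbpj, Maml2, Lfng, and Rfng. Hes1, Hey1, Heyl, and Mfng had no entry. The 250 bases before each start were searched on both strands for the core of the RBPJ site, TGGGAA, read as TTCCCA where it lies on the opposite strand, which 21.6% of the 32851 promoters in the table hold. At least 2 matches were held by 2.77% of all promoters. The promoter of Hey2 and that of Nrarp are shown because both genes reached 10 or more counts in the ECs alone, and that of Lfng because the gene fell after treatment. Capitals mark matches to the core, and each sequence runs 5′ to 3′ in the direction of its gene. The Hey2 sequence covers chr10:30842784-30843033 on the minus strand, that of Nrarp chr2:25180508-25180757 on the plus strand, and that of Lfng chr5:140607091-140607340 on the plus strand.
Hey2: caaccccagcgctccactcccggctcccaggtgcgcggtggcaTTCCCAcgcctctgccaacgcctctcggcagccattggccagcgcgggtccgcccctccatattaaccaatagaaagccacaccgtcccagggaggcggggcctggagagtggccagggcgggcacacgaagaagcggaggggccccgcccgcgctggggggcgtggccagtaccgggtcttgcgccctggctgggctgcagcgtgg
Nrarp: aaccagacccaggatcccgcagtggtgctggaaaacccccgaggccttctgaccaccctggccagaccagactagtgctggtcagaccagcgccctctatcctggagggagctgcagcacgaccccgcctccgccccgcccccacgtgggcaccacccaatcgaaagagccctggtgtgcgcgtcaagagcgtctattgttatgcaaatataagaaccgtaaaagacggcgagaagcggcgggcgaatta
Lfng: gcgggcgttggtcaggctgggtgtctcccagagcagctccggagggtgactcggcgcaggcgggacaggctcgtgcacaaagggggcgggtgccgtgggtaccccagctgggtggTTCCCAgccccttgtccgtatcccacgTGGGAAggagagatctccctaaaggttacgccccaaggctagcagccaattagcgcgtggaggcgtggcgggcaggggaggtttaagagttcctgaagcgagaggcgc
The Hey2 window held 1 match, starting 207 bases before the start. The Lfng window held 2 matches, starting 135 and 108 bases before it. The Nrarp window held no match, which says only that these letters are not in this window. One of the start sites of Rbpj had 2 matches, at 149 and 65 bases, and the other had 1, at 205 bases. The windows of these start sites overlap, and the matches at 65 and 205 bases are the same bases of the genome. Of the start sites of Maml2, 1 had a match at 145 bases and the other had none, and the Rfng window had none. CTTTGA, a core of TCF and LEF sites, occurs in 13.8% of promoters and in no window of these 6 genes. The E-box CACGTG was found in the Nrarp and Lfng windows (6.02% of promoters) and CACGCG, a site bound by HES repressors, in the Lfng and Rfng windows (7.62% of promoters). In the Lfng window CACGTG runs into the TGGGAA match nearer the start, so these overlap. A match is a run of letters, not a bound site.

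Hes1 rose after SB216763, and the other HES and HEY members did not rise with it. Hes1 encodes a repressor that holds back differentiation genes in many progenitor cells (chromosome 16, 30064384 to 30067796, GENCODE M21 on GRCm38). Its level was 6.38, 7.25, and 6.36 CPM in the control libraries, 66.3, 72.9, and 67.5 CPM in the treated libraries, and 52.0, 52.8, and 51.3 CPM in the ECs. The 3 groups did not overlap, and the treated osteoblasts stood above the ECs. Treated osteoblasts had 10.3-fold more Hes1 than controls, a log2 fold change of 3.36 ± 0.06 (SE). The adjusted p was 1.57e-16 by the quasi-likelihood test of edgeR, with Benjamini-Hochberg adjustment over 15531 genes. That fit estimates the spread from all 3 groups, the ECs included. With only the 2 osteoblast groups in the fit, the adjusted p in edgeR was 1.76e-11. Between treated osteoblasts and ECs the log2 fold change of Hes1 was 0.41 (95% interval 0.31 to 0.50, adjusted p = 1.40e-06), below the fold cutoff of 2 on the log2 scale that the study's methods use together with an FDR under 0.01.

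**Figure D1:**
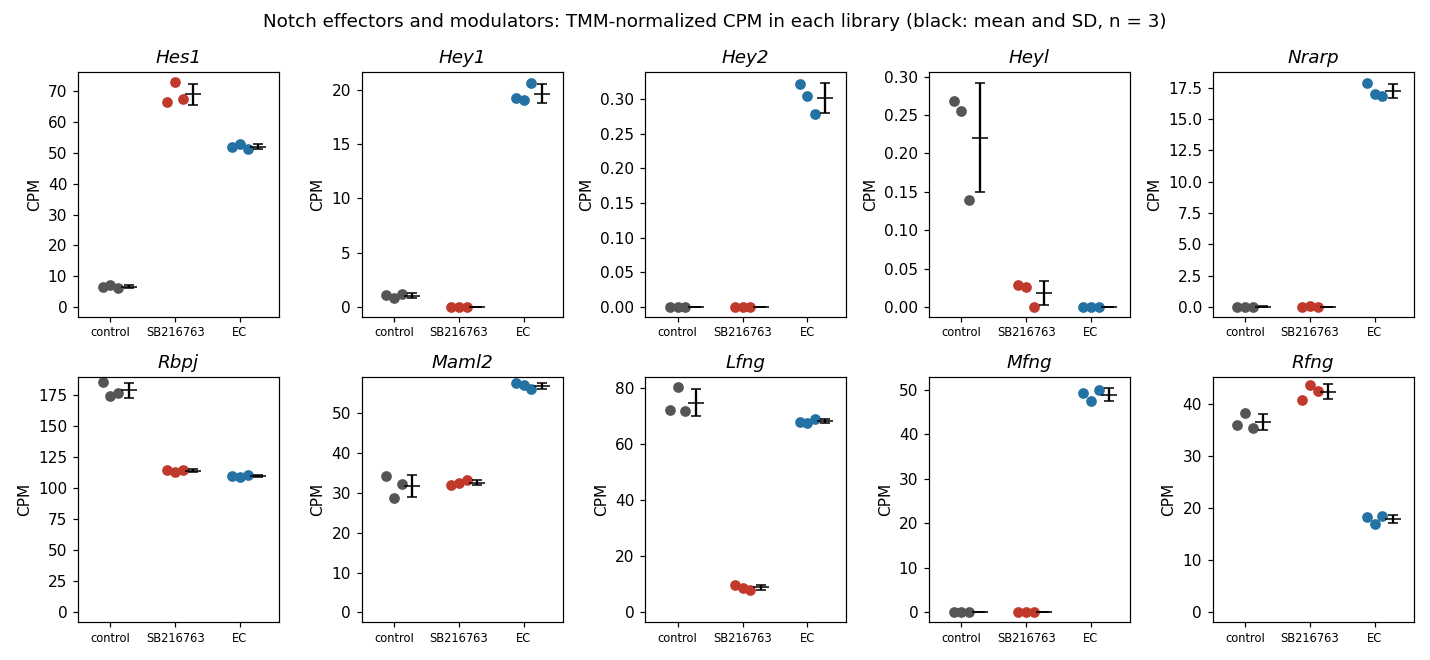
Level of each of the 10 genes in CPM (vertical axis, linear, a separate scale per gene) in the 3 libraries of the control, SB216763, and EC groups, with the mean and SD in black (n = 3). Hes1 rose from between 6.36 and 7.25 to between 66.3 and 72.9 CPM, Lfng fell, and Hey1, Hey2, Nrarp, and Mfng stood high in the ECs alone.

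Hey1, whose product is a repressor of the same family and an arterial Notch target (chromosome 3, 8663359 to 8667256), went the other way. Control libraries held 73, 45, and 35 Hey1 counts (1.15, 0.819, and 1.22 CPM) and treated libraries held 2, 1, and 1, against 838, 627, and 890 counts in the ECs (19.2, 19.1, and 20.6 CPM). The treated libraries all lay below the controls and the controls all lay below the ECs. The pooled level was 28.6-fold lower after treatment than in the controls (95% exact counting interval 10.9 to 106), and edgeR fitted -4.73 ± 0.37 (SE) on the log2 scale (adjusted p = 1.05e-08). Against the control osteoblasts, Hey1 was higher in the ECs by 4.23 ± 0.11 (SE) on the log2 scale (adjusted p = 2.41e-15 in edgeR). Hes1 and Hey1 were thus both higher in ECs than in control osteoblasts, and between treated and control osteoblasts they moved in opposite directions.

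Hey2 and Heyl were sparse. Hey2, another repressor of the arterial program, had 0 counts in all 6 MC3T3-E1 libraries and 14, 10, and 12 counts in the ECs (0.321, 0.305, and 0.278 CPM). Taking 3 counts over the 3 libraries of a group as the limit that 0 counts allow, Hey2 was at least 14.8-fold higher in ECs than in controls and at least 11.03-fold higher than in treated osteoblasts. Heyl had 17, 14, and 4 counts in the controls, 1, 1, and 0 after treatment, and 0 in all 3 EC libraries. It did not pass the filter on low counts. Its pooled level was 13.1-fold lower after treatment than in the controls (95% exact counting interval 3.36 to 112) and at least 9.48-fold lower in the ECs. In a fit without the filter, Heyl had a fitted log2 difference of -3.47 after treatment (adjusted p = 1.01e-04 from edgeR over 29670 genes). Adjusted p-values of that edgeR fit differ from those of the main fit. For Rbpj the value was 5.60e-22 in place of 7.35e-10, and for Rfng 0.00267 in place of 0.00117. The p-value of Heyl is therefore a description only.

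Scaled to exon length, Hes1 made up nearly all of the summed level of these 4 repressors after treatment. RPKM is used here for CPM per kilobase of annotated exon. The sum of Hes1, Hey1, Hey2, and Heyl came to 3.64 ± 0.191 RPKM in the controls, 33.8 ± 1.71 RPKM in treated cells, and 31.6 ± 0.181 RPKM in the ECs (SD, n = 3). The sum after treatment was thus close to that of ECs in size, with a different composition. Hes1 made up 89.8% ± 2.08 of it in the controls, 99.96% ± 0.0239 after treatment, and 80.8% ± 0.864 in the ECs. Hey1 contributed 9.01% ± 2.20 of the sum in control, 0.0338% ± 0.0175 in treated, and 19.0% ± 0.876 in EC libraries.

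**Figure D2:**
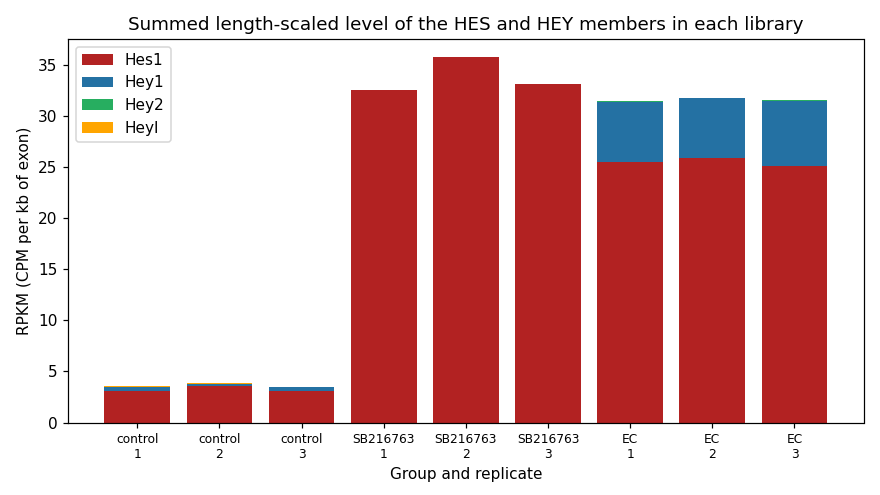
Stacked level of Hes1, Hey1, Hey2, and Heyl in RPKM (vertical axis, from 0) in each of the 9 libraries (horizontal axis). The treated and EC bars have similar heights, and Hey1 takes 19.0% of the bar on average in the ECs and 0.0338% after treatment.

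Nrarp, which encodes a small ankyrin-repeat protein that binds the intracellular domain of Notch and dampens it, did not appear after treatment. It had 3, 2, and 0 counts in the controls, 0, 2, and 0 counts in the treated libraries, and 780, 558, and 727 counts in the ECs (17.9, 17.0, and 16.8 CPM). With so few counts, treatment and control could not be distinguished (adjusted p = 0.492 in edgeR). The pooled level in the ECs was 508-fold higher than in the controls (95% exact counting interval 217 to 1566) and 949-fold higher than after treatment (262 to 7840). Both treated counts came from replicate 2, and without that library the ECs were at least 412-fold higher. The gene lies on chromosome 2 (25180758 to 25183339, plus strand, 1 exon, GENCODE M21 on GRCm38), and the antisense gene Gm38287 covers 79.4% of its exon. Gm38287 had 0 counts in all 9 libraries. Whether the counting used strand is not stated, and without it reads of this pair cannot be told apart.

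The nuclear factors changed little. Rbpj, which encodes the DNA-binding partner of every Notch receptor (chromosome 5, 53466152 to 53657362), was at 186, 174, and 176 CPM in the controls, 115, 113, and 115 CPM after treatment, and 110, 109, and 111 CPM in the ECs. The treated libraries lay below the controls, with -0.65 ± 0.04 (SE) on the log2 scale (adjusted p = 7.35e-10 in edgeR), which is under the fold cutoff. All 3 treated libraries lay just above the ECs, with a log2 fold change of 0.06 (95% interval -0.02 to 0.14, adjusted p = 0.211). Maml2, a Mastermind co-activator (chromosome 9, 13297957 to 13709388), was at 34.3, 28.8, and 32.2 CPM in the controls and 31.9, 32.5, and 33.3 CPM after treatment. Those groups overlapped, and the difference had a 95% interval of -0.07 to 0.15 on the log2 scale. In the ECs Maml2 stood higher, at 57.6, 57.0, and 56.1 CPM, a log2 fold change of 0.84 over the controls (adjusted p = 6.42e-10 from edgeR).

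The Fringe genes each had a pattern of their own. Lfng, lunatic fringe, which lengthens O-fucose sugars on Notch (chromosome 5, 140607320 to 140615545), fell from 72.3, 80.4, and 71.9 CPM in the controls to 9.95, 8.73, and 8.01 CPM after treatment, against 68.1, 67.7, and 69.1 CPM in the ECs. Its treated libraries lay far below both other groups, at -3.08 ± 0.07 (SE) on the log2 scale against the controls (adjusted p = 1.77e-15 in edgeR) and -2.94 against the ECs (adjusted p = 9.57e-16). Control osteoblasts and ECs differed by a log2 fold change of only -0.13 (95% interval -0.25 to -0.02, adjusted p = 0.0411), which did not pass the FDR cutoff. Lfng in treated osteoblasts thus lay 8.43-fold under the controls and 7.68-fold under the ECs.

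Mfng, manic fringe, was an EC gene in these libraries. It had 2, 4, and 1 counts in the controls, 0, 1, and 2 counts after treatment, and 2154, 1554, and 2158 counts in the ECs (49.3, 47.3, and 49.99 CPM). Its pooled level in the ECs was 1031-fold higher than in the controls (95% exact counting interval 500.0 to 2565), and with so few counts treated and control osteoblasts could not be distinguished (adjusted p = 0.457 in edgeR). Rfng, radical fringe, was at 36.0, 38.3, and 35.4 CPM in the controls, 40.9, 43.7, and 42.6 CPM after treatment, and 18.4, 17.1, and 18.4 CPM in the ECs. The treated libraries all lay above the controls by a small step, at 0.21 on the log2 scale (95% interval 0.12 to 0.31, adjusted p = 0.00117 in edgeR), while the ECs lay below both.

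Counted together, 9 of the 10 genes passed the filter on low counts, and Hey2, Nrarp, and Mfng passed it through the ECs alone. Between treated and control osteoblasts, 1 gene was higher past both cutoffs (Hes1), where 3.81% of the 15531 genes tested were, and 2 genes were lower (Hey1 and Lfng), where 5.84% of all genes were. At an FDR under 0.01 with no fold cutoff, Rfng joined the higher genes and Rbpj the lower ones, in a comparison where 32.9% of all genes were higher and 32.0% lower by that rule. Among the 9 genes tested, the same 5 were those whose treated and control libraries did not overlap, 2 above and 3 below, and the libraries of 37.3% of all genes lay apart upward and of 35.9% downward. The libraries of Heyl, which was not tested, did not overlap either, with the treated ones below. The median log2 fold change of the 9 genes was -0.65, or -0.31 over the 6 left without Hey2, Nrarp, and Mfng, a choice made after seeing the data, and the median of all genes tested was 0.01.

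Between ECs and control osteoblasts, 5 of the 9 genes were higher past both cutoffs (Hes1, Hey1, Hey2, Nrarp, and Mfng), against 13.5% of all genes tested. Since Hey2, Nrarp, and Mfng could enter the test only by being high in the ECs, this number is a description only. At an FDR under 0.01 alone, 6 genes were higher and 2 lower, where 39.0% and 37.9% of all genes were. The libraries of all 9 genes were apart, 6 with the ECs above and 3 with them below, as held for 42.6% and 41.4% of all genes. By edgeR, 0 of the genes were lower in ECs past both cutoffs, as by DESeq2 and limma-voom, while 3 were lower at an unadjusted p under 0.05, and 9.87% of all genes were lower. Between treated osteoblasts and ECs, 5 genes were lower after treatment (Hey1, Hey2, Nrarp, Lfng, and Mfng), against 15.0% of all genes, a number that is again a description only because Hey2, Nrarp, and Mfng entered through the ECs. By edgeR, DESeq2, or limma-voom 0 were higher, against 10.3% of all genes, with 2 higher at an unadjusted p under 0.05. At an FDR under 0.01 alone, 2 genes were higher and 6 lower, where 38.3% and 40.3% of all genes were, and by libraries that did not overlap 3 were higher and 6 lower, where 41.6% and 43.8% of all genes were. These comparisons share the control, treated, or EC libraries, so their values are given side by side and are not independent.

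**Figure D3:**
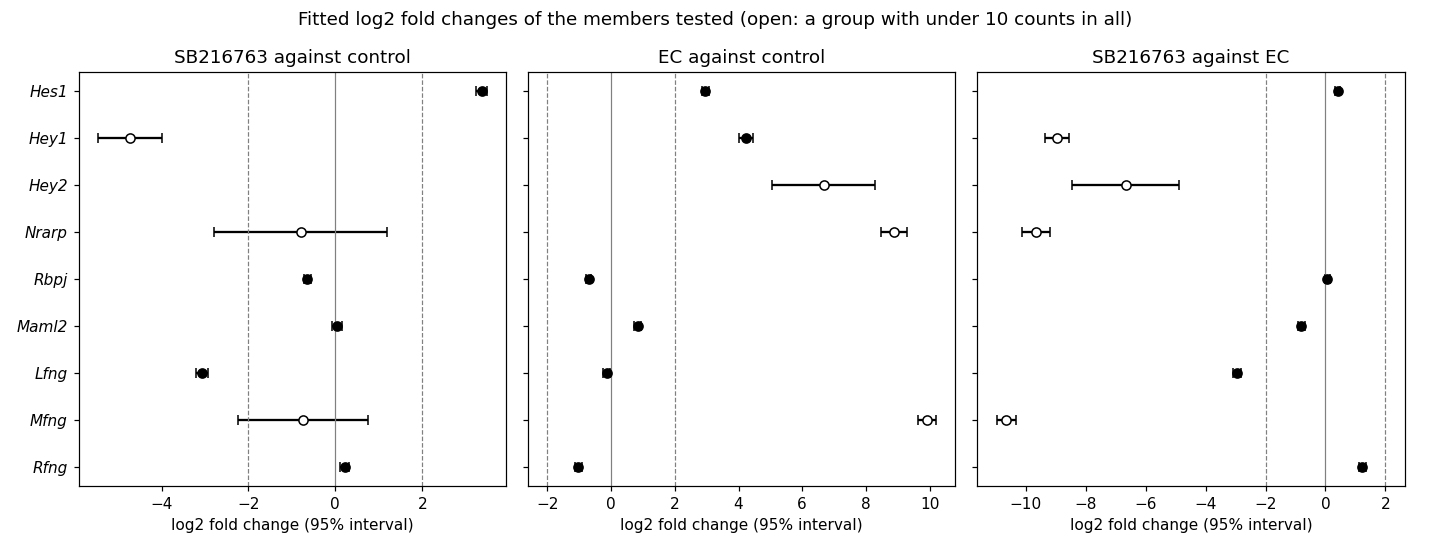
Fitted log2 fold change with its 95% interval (horizontal axis) for the 9 genes tested, in SB216763 against control, EC against control, and SB216763 against EC. Hey2, with 0 counts in both osteoblast groups, has no point in the panel of SB216763 against control. Dashed lines mark the cutoffs at -2 and 2, and open points mark genes with under 10 counts in a group, whose size depends on the prior count. Hes1 lies at 3.36 and 2.96 in the panels against control, while Hey1 lies at -4.73 and 4.23.

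Ranked by RPKM, the order of the genes changed with treatment. In the controls Lfng stood at the top with 29.9 ± 1.93 RPKM, followed by Rfng (14.7 ± 0.616 RPKM) and Rbpj (14.0 ± 0.473 RPKM), whose libraries overlapped. Maml2 (4.81 ± 0.414 RPKM), Hes1 (3.27 ± 0.249 RPKM), and Hey1 (0.325 ± 0.0651 RPKM) followed without overlap between neighbors (SD, n = 3). After treatment Hes1 stood at the top with 33.8 ± 1.71 RPKM, ahead of Rfng (17.0 ± 0.579 RPKM), Rbpj (8.95 ± 0.0921 RPKM), Maml2 (4.94 ± 0.103 RPKM), and Lfng (3.55 ± 0.391 RPKM), and the other 5 genes were under 0.02 RPKM and overlapped with their neighbors in the order. In the ECs Lfng (27.3 ± 0.284 RPKM), Hes1 (25.5 ± 0.371 RPKM), and Mfng (17.2 ± 0.489 RPKM) led. Maml2 (8.62 ± 0.111 RPKM) and Rbpj (8.60 ± 0.0525 RPKM) did not differ beyond their spread, nor did Rfng (7.22 ± 0.316 RPKM) and Nrarp (6.68 ± 0.214 RPKM), and Hey1 came next at 6.01 ± 0.261 RPKM. The Nrarp level was scaled to its whole exon, so the strand limit given above holds for its place in this order. With the longest annotated transcript as the length, Rbpj (32.6 RPKM) and Lfng (32.5 RPKM) had nearly equal means at the top in the controls. After treatment Hes1 stayed at the top and Rbpj (20.8 RPKM) passed Rfng (17.2 RPKM). In the ECs Hes1 and not Lfng then led, Rbpj passed Maml2, and Hey1 passed Rfng and Nrarp.

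The genes with the pattern most like that of Hes1 over the 9 libraries, by Euclidean distance between log2 CPM values centered per gene among 10260 genes with a mean of at least 10 CPM in a group, were Clec2d (distance 0.453), Plpp3 (0.525), and Flrt2 (0.720). Clec2d had means of 1.74, 14.7, and 13.5 CPM in the control, treated, and EC groups, Plpp3 of 16.9, 195, and 113 CPM, and Flrt2 of 24.9, 215, and 139 CPM. Nearest to Hey1 were Tll1 (distance 0.812), Ly6a (1.15), and Krt80 (1.16). Tll1 had means of 1.64, 0.0555, and 34.8 CPM, and Ly6a, an antigen of endothelial and stem cells in the mouse, of 42.9, 2.01, and 542 CPM. The 9 libraries fall into 3 groups, so likeness over them is mostly likeness of 3 group means. Ranked by Pearson correlation, the nearest genes kept 0 of the 3 for Hes1 and 1 of the 3 for Hey1. The calls of Hes1, higher in treated osteoblasts and in ECs than in controls with no call between the former, were shared by 159 genes (1.02% of those tested), and the calls of Hey1, lower after treatment and higher in ECs, by 101 genes (0.650%).

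A list of 65 other Notch pathway genes was set beside the 10. Of these, 57 were tested, and 5 were higher after treatment past both cutoffs (8.77%, where 3.81% of all genes were) and 2 were lower (3.51%, where 5.84% of all genes were). Their median log2 fold change was 0.35, against 0.01 for all genes tested. The higher genes were Notch1, the ligand gene Dll4, the HES-related repressor gene Bhlhe41, Dtx4, which encodes an E3 ligase of the Deltex family, and Aph1c, a gamma-secretase subunit gene. Notch1 went from 19.1, 14.8, and 20.9 CPM to 130, 130, and 152 CPM, against 215, 213, and 234 CPM in the ECs. Dll4 remained sparse, with 6, 6, and 0 counts in the controls and 24, 25, and 28 after treatment, against 559, 420, and 566 in the ECs. Aph1c had 1, 1, and 0 counts in the controls and 3, 5, and 3 after treatment, and as a close paralog of Aph1b its counts are uncertain. It passed the filter on low counts only through the ECs, where it had 22, 11, and 18 counts. With DESeq2, without the filter, or with only the 2 groups compared in the fit, 4 pathway genes in place of 5 were higher.

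Bhlhe41 and Dtx4 were the well-counted genes of that group beside Notch1. Bhlhe41 was at 8.27, 8.08, and 7.43 CPM in the controls, 41.4, 40.9, and 39.1 CPM after treatment, and 45.7, 45.8, and 42.6 CPM in the ECs, which for treatment was 2.34 ± 0.06 (SE) on the log2 scale (adjusted p = 4.86e-15 in edgeR). Dtx4 was at 8.95, 8.87, and 9.90 CPM in the controls, 42.4, 41.0, and 40.4 CPM after treatment, and 8.29, 9.53, and 10.2 CPM in the ECs, where it stood near the control level. The lower genes were Neurl1b, which encodes an E3 ligase that promotes ligand endocytosis, and Dlk2, a non-canonical ligand gene. Neurl1b went from 8.76, 9.32, and 9.48 CPM to 0.459, 0.678, and 0.626 CPM, against 22.3, 22.1, and 22.6 CPM in the ECs. Dlk2 went from 23.2, 24.0, and 21.7 CPM to 1.63, 1.59, and 1.44 CPM, against 2.80, 1.92, and 3.13 CPM in the ECs.

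**Figure D4:**
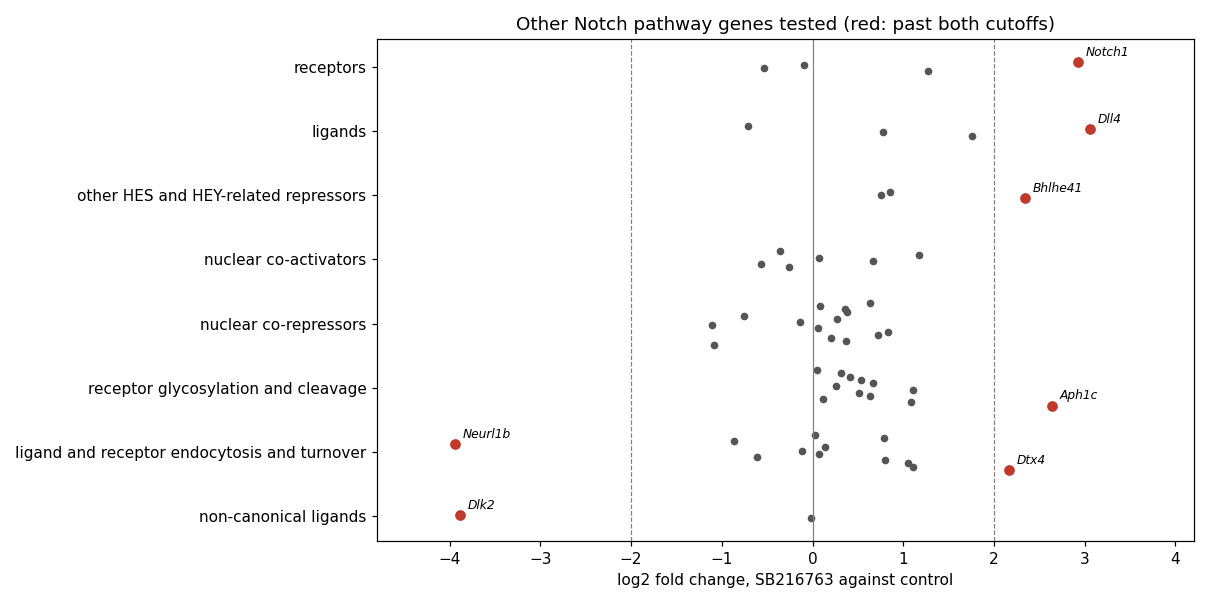
Log2 fold change between SB216763-treated and control osteoblasts (horizontal axis) of the 57 other Notch pathway genes tested, in rows by role, with dashed lines at -2 and 2. The 7 red points passed both cutoffs, and apart from the sparse Aph1c the genes for receptor glycosylation and cleavage lie between 0.05 and 1.11.

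Smaller changes were counted by role at an FDR under 0.01, by which 32.9% of all genes were higher and 32.0% lower. Of the 12 genes for receptor glycosylation and cleavage, 10 were higher, the sparse Aph1c among them, and the other 2 did not pass. Their median log2 fold change was 0.52. Psen2 and Aph1b, for subunits of gamma-secretase, had log2 fold changes of 1.11 and 1.08, and Adam17, for a protease that cuts the receptor, of 0.67. Of the 4 ligand genes tested, 3 were higher and 0 lower, and Dll3 was not tested. The log2 fold changes were 3.06 for Dll4, 1.75 for Jag2, 0.775 for Jag1, and -0.708 for Dll1, which did not pass. Jag2 passed the filter on low counts through the ECs, as Aph1c did. Of the 4 receptor genes, 2 were higher (Notch1 and Notch4) and 1 lower (Notch3). Of the 14 co-repressor genes, 6 were higher and 3 lower, and of the 6 co-activator genes, 2 were higher (Maml3 and Ep300) and 3 lower. Maml3 went from 20.9, 18.5, and 20.0 CPM to 44.4, 44.4, and 44.7 CPM, or 1.17 ± 0.06 (SE) on the log2 scale (adjusted p = 1.77e-11 in edgeR), while Maml1 had a log2 fold change of -0.36. Of the 8 other genes listed as related to HES and HEY, only 3 were tested (Hes6, Bhlhe40, and Bhlhe41). Each was higher, Hes6 with a log2 fold change of 0.86. Whether these 3 genes respond to Notch in these cells was not tested.

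The canonical ligand genes stood lower in treated osteoblasts than in ECs. The 4 ligand genes that were tested (Dll1, Dll4, Jag1, and Jag2) were lower in treated osteoblasts than in ECs past both cutoffs, with log2 fold changes between -6.74 and -3.18. Jag2 held 7, 6, and 1 counts in the controls and 7, 20, and 9 after treatment. It passed the filter on low counts through the ECs, so its direction against them is a description only. Over the 57 genes, 6 were higher and 8 lower in treated osteoblasts than in ECs, where 10.3% and 15.0% of all genes were. Between ECs and control osteoblasts, 8 of the 57 were higher and 5 lower (14.0% and 8.77%), near the 13.5% and 9.87% of all genes. Since Jag2 and Aph1c could enter the test only by being high in the ECs, both sets of numbers are descriptions only.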

How the data were processed

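RNA-Seq of 9 libraries was used, 3 each of control MC3T3-E1 osteoblasts, SB216763-treated osteoblasts, and pulmonary ECs, grouped by the sample titles. The authors deposited raw counts per gene without normalization, and the submitters' processing notes name STAR 2.5.3a and GRCm38. The annotation release and strand setting are not given in the sources used here. Each column was matched to a library by title. Symbols were found for 50376 of 50686 identifiers, and coordinates and exon lengths for 50462 in GENCODE M21.

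Genes were kept by filterByExpr (15531), scaled by TMM on the counts of the genes kept, and fitted in one quasi-likelihood model of all 9 libraries (edgeR 4.0.16, R 4.3.3). A gene was called where its log2 fold change was 2 or more in size with an FDR under 0.01, after the study's methods. Fold changes used a prior count of 0.125, log2 CPM a prior count of 2. The SE of a log2 fold change was its size over the square root of the F statistic of its test. The 95% intervals took this SE with a normal quantile, so they can be narrower than the test implies. Sparse genes were given as ratios of pooled counts with exact binomial intervals (scipy 1.17.1). Replicates differed by more than sampling noise (chi-square per gene from 2.85 to 104).

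The genes, lists, and tests were chosen with earlier results of these data known. Named genes were the 10 genes, the pathway genes past both cutoffs in SB216763 against control, and the 3 nearest to Hes1 and to Hey1. Pathway genes with smaller changes were named after their values were seen. The edgeR, limma-voom, and DESeq2 fits were run on simulated data for SB216763 against control only. There, 200 of 13759 genes were changed by 3 on the log2 scale, and each tool recovered 200 with 0 false calls. That setting covers neither the EC comparisons nor the pooled ratios of sparse genes, and it does not test smaller changes. Alternatives were DESeq2 1.42.0 and limma-voom (limma 3.58.1), 2 other scalings, 2 other filters, pairwise fits, a replicate block, other cutoffs and prior counts, and leaving out each library.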

Additional observations from a re-analysis of the deposited data

How the results depend on the processing

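Over the alternatives run for the 10 genes, 462 of 463 fold changes kept their direction and their side of the joint fold and FDR rule. The exception was Maml2 between treated and control osteoblasts, which had a log2 fold change of 0.036, and between -0.042 (without control replicate 2) and 0.097 without any 1 library. By FDR alone, 2 results changed side, both with scaling by library size only, namely Maml2 against control (0.24, adjusted p = 0.00125) and Rbpj in SB216763 against EC (0.14, adjusted p = 0.00481). With a prior count of 2, the fitted value of Hey1 in SB216763 against control was -3.69. With only the osteoblast groups in the fit, adjusted p-values in edgeR for that comparison were larger, at 1.61e-06 for Hey1 and 1.01e-10 for Lfng. Scaling by library size only moved the median of all genes between treated and control osteoblasts from 0.01 to 0.22 on the log2 scale. Relative to that shift Hes1 (3.57), Hey1, and Lfng (-2.87) kept their directions.

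Of 252 numbers of genes past the cutoffs, 235 stayed within 1.5 times. With the fold cutoff lowered to 1 on the log2 scale, the 10 genes had 1 lower in EC against control and 1 higher in SB216763 against EC, and the pathway genes had 12 higher and 4 lower in SB216763 against control, 18 higher in EC against control, and 10 higher in SB216763 against EC. With no fold cutoff, the 10 genes had 2 higher in SB216763 against control, 2 lower in EC against control, and 2 higher in SB216763 against EC, and the pathway genes had 31 higher and 11 lower, 30 higher and 17 lower, and 23 higher and 25 lower in the same order. A looser cutoff can only add genes. Without the filter, 1 gene (Heyl) was lower in EC against control. Tested against a log2 fold change of 2, 2 pathway genes were higher in SB216763 against control.

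Without EC replicate 1, Hey2 no longer passed the filter, and the 10 genes had 4 in place of 5 higher in EC against control and 4 lower in SB216763 against EC. Without any single library, Hes1 stayed between 3.32 and 3.43 and Lfng between -3.17 and -3.01 (log2, treated against control). The labels do not say whether same-numbered libraries share a source. Their correlations of deviations were 0.00286, 0.124, and 0.0810 for control and SB216763, and 4 of 6 libraries correlated best with their own number. With the replicate block, the 10 genes again had 1 higher and 2 lower in SB216763 against control. Depth limits Hey2, Heyl, Nrarp, and Mfng in the osteoblasts, where each library held at most 17 counts. It also limits Hey1 after treatment, where the libraries held 2, 1, and 1 counts.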
